A study of Mus musculus with 10 samples.

Results

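The 9 genes C1qa, C1qb, C1qc, Apoe, Mrc1, Csf1r, Adgre1, Trem2 and Ms4a7 are widely used as markers of tissue macrophages, and they were followed here through RNA libraries of sorted tumour neutrophils. The rule lists them by name and sets no threshold on measured values. All 9 were found, each as 1 row, among the 55385 mouse genes of the count table, and all 9 passed the filter on low counts.

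The neutrophils came from squamous cell carcinomas (SCC) grown from grafted SCC cells on CatchupIVM-red mice, in which the neutrophil gene Ly6g drives the red fluorescent protein Tomato, and Tomato+ cells were isolated. One graft was the parental line with low Sox2 (the control), the other was SCC with high Sox2 (Sox2Hi), a transcription factor of stem cells, and the design asks how Sox2 in the tumour shapes its neutrophils. The sample descriptions also carry C57 for all libraries and GFP for those of the control graft, without saying what these stand for. The mice were left untreated (naive) or received anti-PDL1 with a CD40 agonist, an immunotherapy pair of a checkpoint antibody and a stimulator of antigen-presenting cells. From control grafts there were 3 naive and 2 treated libraries, and from Sox2Hi grafts 3 naive and 2 treated ones. All hosts carried the reporter, so the sort rests on Ly6g activity alone as far as the labels say. Ages, doses and the number of animals behind a library are not given in the sources used here, so the p-values measure the spread between these libraries, which may be partly technical.

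C1qa, C1qb and C1qc encode the chains of C1q, the molecule that recognises immune complexes and dying cells and starts the classical complement pathway. Apoe carries lipid out of cells that have taken up cholesterol-rich debris, and Trem2 is a lipid-sensing receptor of macrophages that signals through the adaptor Tyrobp. Csf1r is the receptor for the macrophage growth factors CSF1 and IL-34. Mrc1 is the mannose receptor CD206, Adgre1 encodes the surface protein F4/80, and Ms4a7 is a membrane protein of macrophages. Mature neutrophils are not known for high levels of these transcripts, although they share the myeloid factor PU.1 (Spi1) and the adaptor Tyrobp with macrophages.

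RefSeq promoter windows (GRCm38.p6) were given for 6 of the 9 genes. Those of C1qb and C1qc are shown because the 2 neighbours deviated from their group means with the same sign in 9 of 10 libraries, and that of Apoe because its level relative to them differed between naive and treated libraries. Other pairs, such as C1qb and Apoe, shared their sign at least as often, and a group of 2 libraries has mirrored deviations. The windows cover the 250 bases before the RefSeq start, 5′ to 3′ on the minus strand that carries each gene, at chr4:136886201-136886450 for C1qb and chr7:19699189-19699438 for Apoe. For C1qc 151 of these bases lie inside the gene as GENCODE M21 annotates it, so only the other 99, at chr4:136893066-136893164, are shown. Capitals mark the letters GAGGAA on either strand, the core bound by PU.1.
C1qb: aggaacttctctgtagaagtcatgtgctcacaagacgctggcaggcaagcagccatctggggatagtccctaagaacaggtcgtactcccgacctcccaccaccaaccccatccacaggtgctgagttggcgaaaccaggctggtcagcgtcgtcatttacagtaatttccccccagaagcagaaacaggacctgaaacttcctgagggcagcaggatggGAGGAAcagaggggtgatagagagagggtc
C1qc: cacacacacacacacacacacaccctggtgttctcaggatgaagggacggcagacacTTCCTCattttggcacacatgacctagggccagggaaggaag
Apoe: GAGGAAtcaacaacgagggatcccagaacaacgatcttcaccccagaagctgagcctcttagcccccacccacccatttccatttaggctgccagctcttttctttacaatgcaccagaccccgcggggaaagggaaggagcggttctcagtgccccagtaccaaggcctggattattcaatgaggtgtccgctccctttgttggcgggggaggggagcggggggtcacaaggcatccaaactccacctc
Each of the 3 windows held this core once, as did 23.3% of all 32851 windows of the same length at least once. Mrc1 held 3 matches and Trem2 held 1, while no match was in the Ms4a7 window. The interferon gamma activated site, TTCNNNGAA, had no match in any of the 6 windows and was in 7.02% of all windows. The core of the interferon response element, GAAANNGAA, was in the Apoe and the Ms4a7 window, 1 match each, and in 7.13% of all windows. The AP-1 site, TGANTCA, had 1 match, in the Trem2 window, and was in 6.75% of all windows, and the core bound by MAF factors, TGCTGAC, had none in the 6 and was in 3.81% of all. Each motif was searched on both strands. These matches describe letters in a window and not binding.

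In GENCODE M21 (GRCm38) the C1q genes lie next to each other on the minus strand of chromosome 4, with C1qb at 136880129 to 136886187, C1qc at 136889804 to 136893065 and C1qa at 136895917 to 136898803. Apoe is on chromosome 7 (19696109 to 19699188, minus strand) and Mrc1 on chromosome 2 (14229392 to 14332057, plus strand). Csf1r is on chromosome 18 (61100598 to 61132149, plus strand). Chromosome 17 holds Adgre1 (57358691 to 57483527) and Trem2 (48346401 to 48354147), both on the plus strand, and Ms4a7 is on chromosome 19 (11321039 to 11336146, minus strand). The values are counts over each whole gene. The end of Csf1r overlaps Hmgxb3 on the other strand, and since the use of strand is not given in the sources used here, reads there cannot be told apart. Hmgxb3 was at 3.89 to 6.03 CPM in the 10 libraries, and its treated and naive values differed by -0.21 on the log2 scale in control tumours (edgeR adjusted p = 0.38).

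Total gene counts ran from 13815734 to 22986193 per library. Values are CPM, which set a count against the library's total, scaled by factors from the 11274 genes that averaged 5 CPM or more, called expressed genes here. In bulk RNA fewer cells of a type and less RNA per cell cannot be told apart. The neutrophil label was checked on 16 markers, whose summed level was 12849 to 21030 CPM in naive and 41809 to 44898 CPM in treated control libraries, and 12535 to 18360 and 22011 to 22130 CPM in naive and treated Sox2Hi libraries. The reporter sequence tdTomato was at 8.80 to 14.6, 23.8 to 30.9, 9.44 to 15.4 and 14.9 to 26.8 CPM in the same order. Of the neutrophil marker sum, Il1r2 alone averaged 11192 of 17020 CPM in control naive and 10101 of 15778 CPM in Sox2Hi naive libraries. Ly6g averaged 2.30 and 2.37 CPM in these 2 groups. Reads over silent receptor genes gave an expected background of 5.02% to 8.37% of counts in naive and 1.58% to 1.74% in treated control libraries, and 3.63% to 3.92% and 4.04% to 4.96% in Sox2Hi ones. This background differed between the groups. Calls that change when factors are taken from all filtered genes (the all-gene scaling) are given beside the result.

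Summed over the 9 genes, the macrophage transcripts made up 706 to 1051 CPM in naive and 620 to 1160 CPM in treated control libraries. In Sox2Hi libraries they made up 1090 to 1509 CPM (naive) and 723 to 1472 CPM (treated). The naive Sox2Hi libraries were all above the naive control libraries, and each treated group had a low and a high library. Apoe averaged 520 of a summed 878 CPM in naive control and 835 of 1251 CPM in naive Sox2Hi libraries. Mrc1, Trem2 and Ms4a7 averaged lower in the latter, and the other genes higher. Of single expressed genes, 16.9% were higher in naive Sox2Hi than in naive control libraries without overlap. Apoe had the highest CPM of the 9 in each library. Per kb of exon, Apoe averaged 288 CPM over the 10 libraries, C1qb 102, C1qc 35.0, Ms4a7 23.5, C1qa 22.4, Adgre1 14, Mrc1 4.88, Csf1r 3.95 and Trem2 2.89. Over the 10 libraries the ranges of neighbours in this order overlapped, except between C1qb and C1qc, where the lowest C1qb value was 68.1 and the highest C1qc value 64.1, and between Adgre1 and Mrc1, with 8.29 and 6.63. The order differed between groups, with Csf1r on average above Mrc1 in treated control (5.49 against 4.34) and treated Sox2Hi libraries (5.55 against 4.23). On the same scale the neutrophil transcripts S100a8, S100a9 and Il1r2 averaged 4842, 4989 and 6341. Retnlg, G0s2 and Trem1, at 950, 601 and 562, were also above Apoe. The other neutrophil markers averaged below Apoe, with Hdc at 178, Ngp at 102, Cxcr2 at 101 and Csf3r at 42.4. Mmp8 lay between Cxcr2 and Csf3r. Camp was at 22.5, Mmp9 at 22.4, Ltf at 13.5, Lcn2 at 10.6 and Ly6g at 6.27. Apoe was in the 97.9th percentile of the 11274 expressed genes by mean CPM, and Trem2, the lowest of the 9, in the 43.4th. The expected background was 3.10% to 19.4% of the counts of Csf1r and 5.81% to 18.7% of those of Trem2. For Mrc1 it was 3.37% to 11.2%, and for the other genes at most 4.20%.

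**Figure D1:**
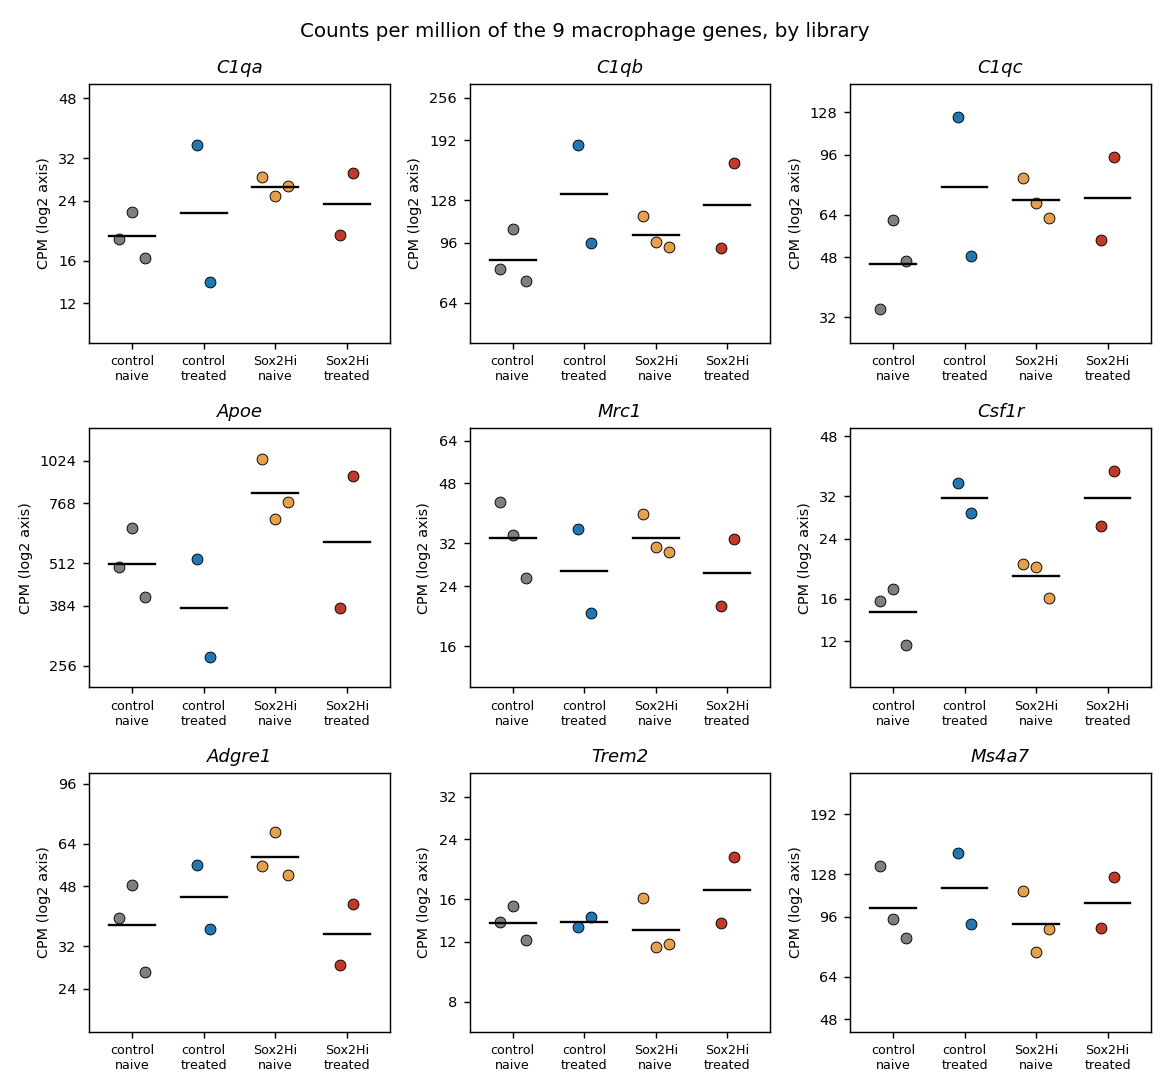
CPM (log2 axis, each panel spanning the same fold) of the 9 macrophage genes in each library, with points for libraries and bars for geometric group means. Csf1r was higher in all 4 treated libraries (26.1 to 38.0 CPM) than in all 6 naive ones (11.7 to 20.2 CPM), and C1qa, C1qb, C1qc and Apoe were spread widely within each treated group.

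The first comparison asks how these transcripts differed between treated and naive libraries of control tumours, and Csf1r was the 1 gene of the 9 called by edgeR. Csf1r was at 15.7, 17.1 and 11.7 CPM in the control naive libraries and at 34.9 and 28.5 CPM in the control treated ones. Both treated libraries were above all naive ones, as for 34.1% of the 11274 expressed genes. It rose by 1.09 on the log2 scale (SE 0.22, edgeR adjusted p = 0.0029). The background for such calls was 48.6% of all 29648 tested genes in either direction and 12.5% in the higher direction. Among expressed genes, as all 9 are, it was 55.5% and 28%, so the share of the 9 called was below the share of all genes called. The median log2 difference was 0.26 over the 9 genes, -0.050 over expressed genes and -0.72 over all tested genes. Among all tested genes 3704 were called higher and 10702 lower, and with the all-gene scaling 5554 higher and 4482 lower.

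The C1q chains were not called, and their treated libraries stood far apart. C1qb was at 80.8, 105.5 and 74.1 CPM in control naive and at 185.9 and 96.2 CPM in control treated libraries, a log2 difference of 0.70 (SE 0.29, edgeR adjusted p = 0.060). C1qc was at 33.8, 61.7 and 46.8 against 123.9 and 48.3 CPM (0.86, SE 0.36, edgeR adjusted p = 0.063). C1qa was at 18.5, 22.3 and 16.3 against 35.1 and 13.9 CPM (0.36, SE 0.32, edgeR adjusted p = 0.34). Treated replicate 1 was above every naive library for each chain, and treated replicate 2 lay within the naive range for C1qb and C1qc and below it for C1qa. Without treated replicate 2 all 3 chains were called (C1qa 0.90, C1qb 1.12 and C1qc 1.40), where 9.09% of all tested genes were called higher. Without treated replicate 1 the differences were -0.49, 0.11 and -0.01 and no chain was called, against 8.65% of all called higher. With the all-gene scaling 4 of the 9 genes were called higher, against 18.7% of all tested and 40% of expressed genes, and these were Csf1r (1.52), C1qc (1.27), C1qb (1.12) and Adgre1 (0.70). These 4 and Trem2 were higher without overlap under that scaling, as were 47.2% of the 11274 expressed genes. DESeq2 called 7 of the 9 higher, against 21.4% of all tested genes, and limma-voom C1qc and Csf1r, against 12.9%.

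The other genes of the set did not pass edgeR's test in control tumours. Apoe was at 499.6, 652.2 and 409.2 CPM in naive and at 528.5 and 272.1 CPM in treated libraries (-0.38, SE 0.37, edgeR adjusted p = 0.39), and its groups overlapped. Adgre1 was at 38.7, 48.3 and 26.9 against 55.3 and 35.8 CPM (0.26, edgeR adjusted p = 0.42). Mrc1 differed by -0.29, Ms4a7 by 0.20 and Trem2 by 0.0044, with overlapping libraries. Trem2 was the most even of the 9, with 11.6 to 21.2 CPM over all 10 libraries. Apoe and Mrc1 turned to small positive values with the all-gene scaling (0.042 and 0.12), uncalled under both. When library totals alone were used, Apoe (-1.02), Mrc1 (-0.93) and Trem2 (-0.63) were called lower, as were 67.8% of all tested genes, and Csf1r was at 0.46 (edgeR adjusted p = 0.057).

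Other markers moved in the same libraries. The summed level of 8 monocyte markers was 346 to 540 CPM in control naive and 2638 to 3058 CPM in control treated libraries, with 6 of 8 called higher and 1 lower. With the all-gene scaling 6 were called higher and 0 lower. All 16 neutrophil markers were called higher. Of the 6 fibroblast markers the sum was 271 to 753 against 86.2 to 100.6 CPM, and of the 7 keratinocyte and tumour cell markers 1541 to 2898 against 920 to 1410 CPM. The erythroid sum was 576 to 1493 against 52.5 to 319 CPM, the mast cell sum 34.4 to 222.5 against 9.08 to 28.2 CPM, and the T and NK cell sum 31.5 to 48.0 against 51.4 to 182 CPM. The dendritic, B and plasma, and endothelial cell sums overlapped. No marker of these lists was at 0 in every library of a group. Their part in the rise of Csf1r was not tested. With the expected background subtracted, Csf1r rose by 1.08 (edgeR adjusted p = 0.0080).

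In Sox2Hi tumours treatment gave no call among the 9 genes in edgeR's quasi-likelihood test, against 5.02% of all tested genes called. Of the expressed genes, 11.3% were called and 7.24% were called higher. At an unadjusted p under 0.05 there were 2, Csf1r and Adgre1, against 7051 of the 29648 tested genes. Both were called by limma-voom, against 11.9% of all tested genes. DESeq2 called Adgre1 lower, against 7.98% of all. Csf1r was at 20.2, 19.8 and 16.1 CPM in naive and at 26.1 and 38.0 CPM in treated libraries, which do not overlap (0.78, SE 0.22, edgeR adjusted p = 0.061), and 32.5% of expressed genes were likewise higher. It was also called when only the groups compared were fitted (6.43% of all called higher), or only genes of 5 CPM or more (11.8%). Adgre1 was at 55.2, 69.2 and 51.9 against 28.3 and 42.6 CPM, with both treated libraries below all naive ones (-0.73, SE 0.28, edgeR adjusted p = 0.14), as for 30% of expressed genes. Mrc1 was lower without overlap when factors came from all filtered genes, as were 42.8% of expressed genes. The log2 differences of the other 7 genes lay between -0.36 for Apoe and 0.40 for Trem2, and the median of the 9 was 0.061, against 0.025 for expressed genes and 0.27 for all tested genes.

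Csf1r was thus higher in treated than in naive libraries of both grafts without overlap, as were 16.3% of the 11274 expressed genes. The 2 treatment comparisons use different libraries. The monocyte sum was 378 to 450 CPM in Sox2Hi naive and 1067 to 2008 CPM in Sox2Hi treated libraries, with 4 of 8 markers called higher. Of the 16 neutrophil markers 8 were called higher, and 7 with the all-gene scaling. The fibroblast sum was 478 to 665 against 97.0 to 315 CPM, the keratinocyte and tumour cell sum 2843 to 3873 against 1666 to 2193 CPM, the erythroid sum 272 to 569 against 24.0 to 61.9 CPM and the B and plasma cell sum 149.7 to 715.1 against 26.2 to 113.8 CPM. Their part in the values of Csf1r was not tested.

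**Figure D2:**
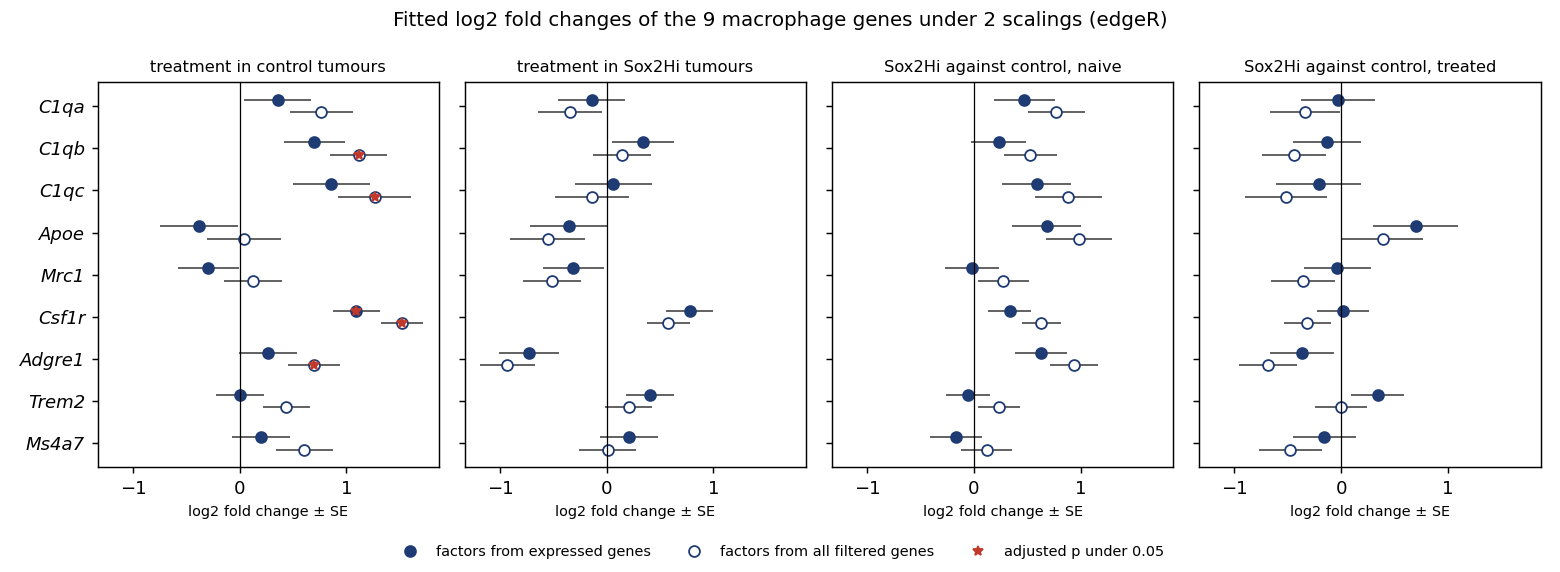
Log2 fold changes with standard errors of the 9 genes in 4 comparisons, with filled points for factors from expressed genes, open points for factors from all filtered genes and red stars for an edgeR adjusted p under 0.05. Csf1r in control tumours was called under both scalings (1.09 and 1.52), and the all-gene points lie to the right in control tumours and to the left in Sox2Hi tumours.

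Between the grafts in naive mice, each Sox2Hi library held more of 4 of the 9 transcripts than any control library. Apoe was at 499.6, 652.2 and 409.2 CPM in control and at 1039.4, 691.6 and 772.5 CPM in Sox2Hi libraries (0.68, SE 0.33, edgeR adjusted p = 0.17). Adgre1 was at 38.7, 48.3 and 26.9 against 55.2, 69.2 and 51.9 CPM (0.63, SE 0.25, edgeR adjusted p = 0.11). All 3 Sox2Hi libraries were above all 3 control libraries for both genes. C1qc at 81.8, 69.3 and 62.6 CPM (0.59) and C1qa at 28.1, 24.7 and 26.4 CPM (0.47) in Sox2Hi libraries also lay above the control libraries. Of the 11274 expressed genes, 16.9% were higher in Sox2Hi without overlap. C1qb (0.23), Csf1r (0.33), Mrc1 (-0.015), Trem2 (-0.056) and Ms4a7 (-0.17) overlapped. With the all-gene scaling C1qb, Csf1r and Trem2 were also higher without overlap, which makes 7 of the 9, and so were 38.4% of expressed genes.

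None of the 9 was called in this comparison by edgeR, against 5.8% of all tested genes. Of the 9, 1, Adgre1, had an unadjusted p under 0.05, against 9250 of the 29648 tested genes. With the all-gene scaling none was called and 5 had an unadjusted p under 0.05, against 8086 of the 29648 tested genes. Whether the replicate numbers of the titles mark pairs is not given in the sources used here. With these numbers as a replicate block in the naive libraries 4 genes were called higher, against 4.5% of all tested genes. These were Adgre1 (0.64, SE 0.14, edgeR adjusted p = 0.0081), Apoe (0.67, SE 0.18, adjusted p = 0.022), C1qc (0.60, SE 0.18, adjusted p = 0.033) and C1qa (0.46, SE 0.15, adjusted p = 0.046). With that block over all 10 libraries none of the 9 was called. DESeq2 called these 4 and Csf1r higher, against 12.5% of all tested genes. Adgre1 and C1qc were called higher by limma-voom, which called 31.7% of all tested genes and 6.36% higher. The summed neutrophil markers overlapped between the naive grafts, keratinocyte and tumour cell markers were at 1541 to 2898 CPM in control and 2843 to 3873 CPM in Sox2Hi libraries, and B and plasma cell markers at 58.7 to 114.1 and 149.7 to 715.1 CPM. Erythroid markers were at 576 to 1493 CPM in control and 272 to 569 CPM in Sox2Hi libraries. Their part in the result was not tested.

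Between the treated grafts no member of the set was called by edgeR or limma-voom, which called 13% and 7.46% of all tested genes. None had an unadjusted p under 0.05 in edgeR with factors from expressed genes, where 10546 of the 29648 tested genes did. With the all-gene scaling Adgre1 did (-0.69, edgeR adjusted p = 0.11), as did 9642 of the 29648 in all. Adgre1 was then lower in Sox2Hi without overlap, as were 54.9% of expressed genes. DESeq2 called Adgre1 lower, against 16.6% of all tested genes. Library totals gave calls for Apoe (1.07) and Trem2 (0.73), with 35.9% of all tested genes called higher. Apoe was at 528.5 and 272.1 CPM in control and at 379.1 and 922.6 CPM in Sox2Hi treated libraries (0.70, SE 0.40, edgeR adjusted p = 0.22). With factors from expressed genes each of the 9 overlapped between the treated groups, while 28.8% of expressed genes were higher and 34.1% lower without overlap. With 2 libraries in each and wide gaps within a group, the standard errors ran from 0.24 for Csf1r to 0.40 for Apoe.

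Whether treatment acted differently in the 2 grafts was tested with the graft by treatment interaction, and none of the 9 was called by edgeR, against 31.2% of all tested genes. At an unadjusted p under 0.05 there was 1 of the 9, against 13785 of the 29648 tested genes. This was Adgre1, with an interaction of -0.99 (SE 0.39, edgeR adjusted p = 0.067). Its naive to treated difference was 0.26 in control and -0.73 in Sox2Hi tumours. Its interaction was -1.05 and called with the replicate block by title numbers, where 33.4% of all tested genes were called and 6.1% lower. It was called by limma-voom (-1.01), with 31.8% of all called and 6.22% lower, and without control naive replicate 2 (-1.19), with 4.53% lower. With the all-gene scaling 2 genes were called, Adgre1 (-1.63) and Csf1r (-0.95), against 16.3% of all tested and 39.2% of expressed genes called lower. DESeq2 called 5 lower, the 3 C1q genes, Csf1r and Adgre1, against 22.5% of all tested genes. The interaction of Csf1r, the gene called in control tumours, was -0.32 (SE 0.31, edgeR adjusted p = 0.44). The other interactions lay between -0.80 for C1qc and 0.40 for Trem2.

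Ratios of counts within a library do not depend on the scaling, and the balance between Apoe and C1q differed by treatment. The ratio of Apoe to the geometric mean of the 3 C1q genes was 10.7 to 13.5 in control naive and 5.68 to 6.79 in control treated libraries. It was 12.6 to 16.2 in Sox2Hi naive and 8.29 to 12 in Sox2Hi treated libraries. The treated libraries were below the naive ones in both grafts. Mrc1 showed the same order, with 0.65 to 1.14 against 0.38 to 0.50 in control and 0.56 to 0.61 against 0.43 to 0.46 in Sox2Hi tumours. C1qa, which is itself part of the mean, made up 11.8% to 13.9% of C1q counts in naive and 8.76% to 10.2% in treated control libraries, and 12.5% to 14.5% and 9.996% to 11.5% in Sox2Hi ones. Apoe, Mrc1 and C1qa, 3 of the 9, were thus lower against C1q on treatment in both grafts without overlap, as were 5.57% of the 11274 genes. The ratios are a description and were not tested.

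Against Csf1r, 6 of the other 8 genes were lower on treatment in both grafts without overlap, and so were 55.7% of the 11274 genes. Apoe was 31.8 to 38.0 times Csf1r in naive and 9.54 to 15.1 times in treated control libraries, and 34.9 to 51.5 and 14.5 to 24.3 times in Sox2Hi ones. Mrc1 was at 1.98 to 2.69, 0.70 to 1.01, 1.58 to 1.93 and 0.80 to 0.87 times Csf1r. Adgre1 was at 2.29 to 2.82, 1.26 to 1.58, 2.73 to 3.49 and 1.08 to 1.12 times Csf1r in the same order. Each of these 3 ratios separated all treated from all naive libraries. The exceptions to the pattern were C1qb and C1qc, whose ratios to Csf1r overlapped in control tumours.

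**Figure D3:**
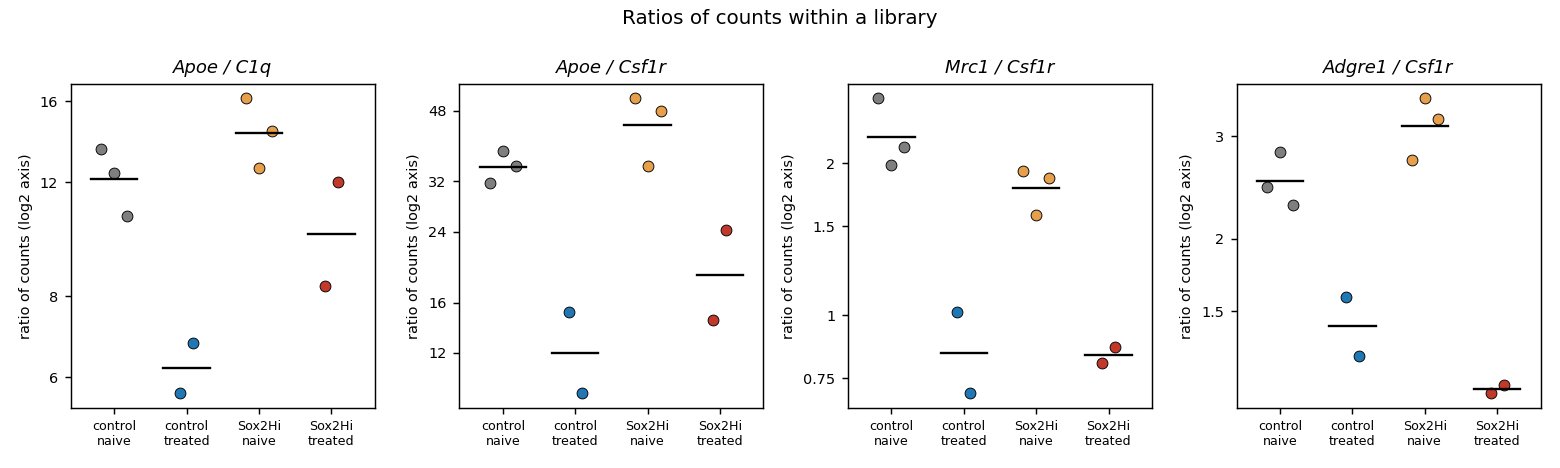
Ratios of counts within each library (log2 axes) of Apoe to the geometric mean of C1qa, C1qb and C1qc and of Apoe, Mrc1 and Adgre1 to Csf1r, with points for libraries and bars for geometric group means. The Apoe to C1q ratio was 5.68 to 6.79 in control treated and 10.7 to 13.5 in control naive libraries, and the treated libraries of each graft lie below its naive ones in every panel.

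Within some groups the 9 genes were mostly high or low in the same libraries. In control treated replicate 1, 8 of 9 were above the group mean of log2(CPM + 1), with Trem2 as the exception, by up to 0.67 for C1qc. In Sox2Hi treated replicate 2 all 9 were above it, by up to 0.64 for Apoe. Control naive replicate 3 was below its mean for 8 of 9 genes, with C1qc at 0.02, and Sox2Hi naive replicate 1 was above it for 8 of 9, with Adgre1 at -0.08. Control naive replicate 1 was split, with the 3 C1q genes and Apoe below the mean and 5 genes above it, Ms4a7 by 0.40 and Mrc1 by 0.34. The Y-linked gene Ddx3y had at most 8 reads in 1 library of each group, which were control naive replicate 1, control treated replicate 1, Sox2Hi naive replicate 1 and Sox2Hi treated replicate 2, and at least 1007 in the others. Both high treated libraries are among these 4. Its part in the spread was not tested beyond a fit with it as a covariate, in which Csf1r stayed called in control tumours.

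**Figure D4:**
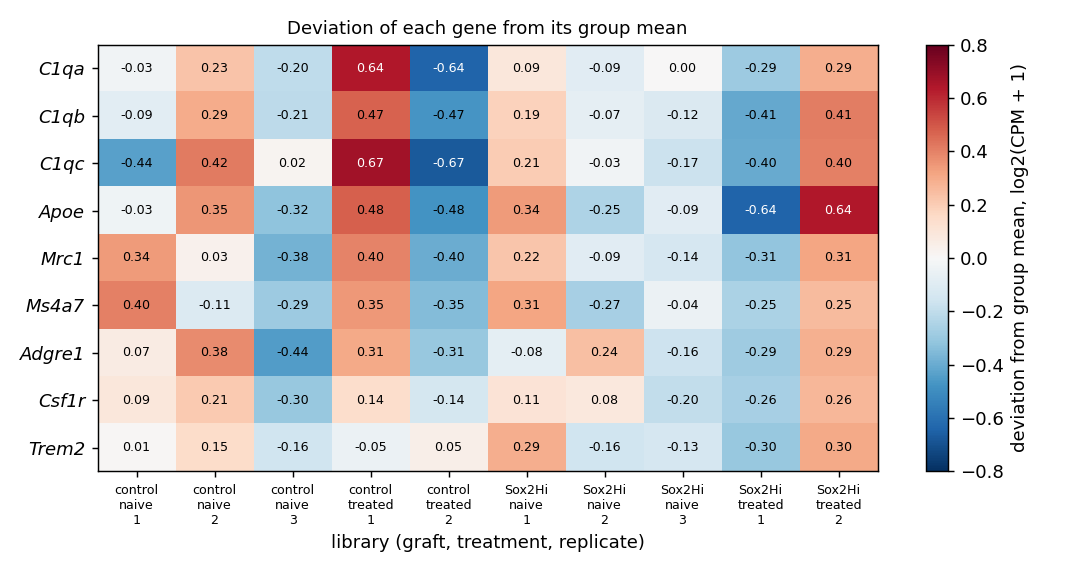
Deviation of each gene (rows) from its group mean of log2(CPM + 1) in each library (columns), red above and blue below, with the value printed in each cell. Control treated replicate 1 and Sox2Hi treated replicate 2 were above their group mean for 8 and for all 9 genes, and since a group of 2 has mirrored deviations their partners are below.

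The genes most like the mean of the 9 centred members were sought among 7071 genes that averaged 10 CPM or more. Over the 10 libraries the highest Pearson r was 0.94 for Lgmn, a lysosomal protease of macrophages, at 206 to 347 CPM, followed by Ltb4r1 (0.86), Entpd7 (0.83), Mia2 (0.82), Cfp (0.81), Crtc3 (0.81), C3ar1 (0.80) and Dym (0.80). After group means were subtracted the order was Bcl10 (0.97), Cfp (0.97), Plin2 (0.96), Sdccag8 (0.96), Selenop (0.95), F13a1 (0.95), Ripk1 (0.95) and Sgpl1 (0.95). Cfp, which encodes properdin of the alternative complement pathway, was in both lists. The 10 libraries share their groups, and these values were picked as the highest of many, so they carry no test.

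Around C1q, the complement partners included genes that rose on treatment. Of 18, 7 rose and 1 fell in control tumours and 3 rose in Sox2Hi tumours, with a median log2 difference of 0.62 and 0.28. As background for this and the following lists, 28% of expressed genes were called higher and 27.4% lower in control tumours, and 7.24% higher and 4.04% lower in Sox2Hi tumours. These shares were, with the all-gene scaling, 40% higher and 11% lower in control and 4% higher in Sox2Hi tumours, and 9 of the 18 were called higher and 0 lower in control tumours. Cfb, a protease component of the alternative pathway, rose by 2.66 (edgeR adjusted p = 8.4e-05) in control and 2.21 (adjusted p = 0.0014) in Sox2Hi tumours. C3, the central component, rose by 2.09 and 1.28, and C1rl by 2.02 and 1.75. The 3 were at 8.17 to 11.8, 39.2 to 58.3 and 3.33 to 6.0 CPM in control naive libraries.

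Of 17 lipid partners of Apoe, 7 rose and 3 fell in control tumours and 2 rose in Sox2Hi tumours, with medians of 0.65 and 0.44. The split in control tumours was 10 higher and 1 lower with the all-gene scaling. The sterol exporters Abcg1 and Abca1 rose by 1.78 and 1.70 in control tumours, and Npc2, a lysosomal cholesterol carrier, by 1.62 (edgeR adjusted p = 8.2e-05). In Sox2Hi tumours Abcg1 rose by 1.06 and Npc2 by 0.90, the latter not called with the all-gene scaling (edgeR adjusted p = 0.062). Apoe itself was at -0.38 and -0.36 in the same comparisons and was not called. The interaction was negative for Lipa (-1.02) and Abca1 (-0.996) and positive for Lpl (0.90), which was not called with the all-gene scaling.

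Of 16 genes of the Trem2 pathway and of lipid-associated macrophages, 12 rose and none fell in control tumours, and 1 rose and 1 fell in Sox2Hi tumours, with medians of 1.21 and 0.28. Tyrobp, the signalling adaptor of Trem2 and of several neutrophil receptors, rose by 1.48 (edgeR adjusted p = 0.00064) in control tumours, and the related adaptor Hcst by 1.76. Treml4 rose by 1.49. In Sox2Hi tumours Cd63 fell by 0.89 and Hcst rose by 0.92, which was not called with the all-gene scaling (edgeR adjusted p = 0.081). The interaction was negative for Spp1 (-1.37), Lgals3 (-1.24) and Fabp5 (-1.14), and 5 of the 16 genes were called lower there, against 10.8% of expressed genes. The all-gene scaling gave 12 lower, against 39.2%. Trem1 of this list is also in the neutrophil marker list.

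Of 14 genes of the Csf1r axis, 8 rose and 2 fell in control tumours and 1 rose in Sox2Hi tumours, with medians of 0.65 and 0.36. The split in control tumours was 9 higher and 1 lower with the all-gene scaling. Spi1, which encodes PU.1, rose by 1.84 in control tumours (edgeR adjusted p = 0.0015), and the receptors Csf3r and Csf2ra for neutrophil and granulocyte-macrophage growth factors rose by 1.52 and 1.28. Csf3r is also a neutrophil marker here. In Sox2Hi tumours Cebpb rose by 0.85, and was not called with the all-gene scaling (edgeR adjusted p = 0.083). The macrophage factor Maf was lower in naive Sox2Hi than in naive control libraries by -0.80 (edgeR adjusted p = 0.041), and was not called with the all-gene scaling (adjusted p = 0.17).

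Beside Mrc1, the list of scavenger receptors was split, with 3 of 15 higher and 6 lower in control tumours, and 1 higher in Sox2Hi tumours (medians -0.12 and 0.48). With the all-gene scaling the split in control tumours turned to 6 higher and 3 lower. Msr1, a scavenger receptor for modified lipoproteins, rose by 2.06 and 1.32 in control and Sox2Hi tumours, the latter not called with the all-gene scaling (edgeR adjusted p = 0.077). The lysosomal protein Cd68 rose by 1.73 in control tumours. Mgl2, a lectin of dendritic cells and alternatively activated macrophages, fell by 1.86 in control tumours (edgeR adjusted p = 0.0077). Of 11 Ms4a genes 6 rose and 1 fell in control tumours and 5 rose in Sox2Hi tumours. Among those averaging 5 CPM or more, the largest rises were of Ms4a4c (2.53 and 2.68), Ms4a6c (2.17 and 1.97) and Ms4a6b (2.07 and 1.65). Ms4a7 itself was at 0.20 and 0.21 and was not called, and Ms4a4c is also in the monocyte list. Of the Adgre genes, Adgre5 rose by 1.32 in control tumours.

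Of 23 further genes used for macrophages, 22 were tested. In control tumours 10 rose and 4 fell, and in Sox2Hi tumours 6 rose and 1 fell, with medians of 0.33 and 0.58. Wfdc17 rose by 3.17 and 2.26, Hmox1, the haem-degrading enzyme, by 2.93 and 1.29, the iron exporter Slc40a1 by 1.97 in control tumours and Aif1 by 1.75 in Sox2Hi tumours. Wfdc17 reached 10326 to 12181 CPM in control treated libraries. In control tumours 11 were called higher and 2 lower with the all-gene scaling. In Sox2Hi tumours the all-gene scaling left 2 genes of this list called higher, and Hmox1 was not called with it there (edgeR adjusted p = 0.085). The share in which neutrophils and macrophages each contribute to these transcripts was not measured.

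**Figure D5:**
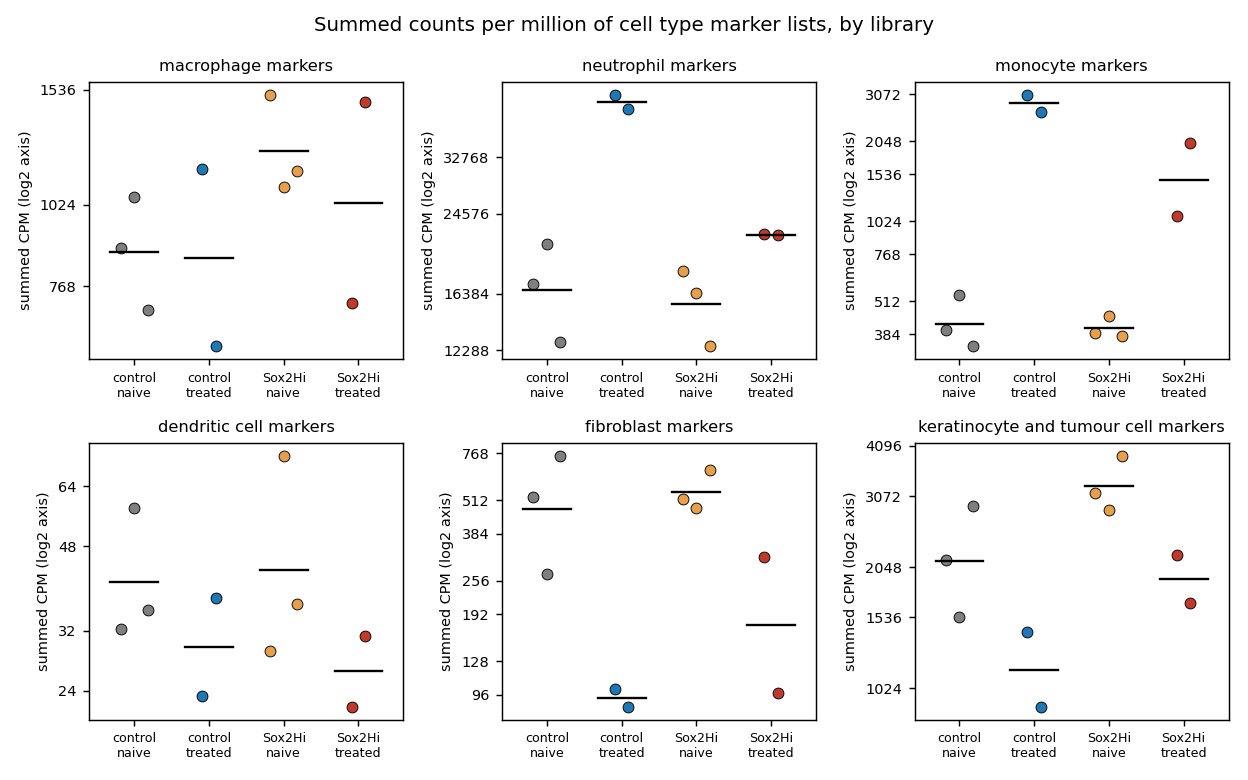
Summed CPM (log2 axes) of 6 cell type marker lists in each library, with points for libraries and bars for geometric group means. The macrophage list, which is the 9 genes described here, overlapped between naive and treated libraries in both grafts, while the monocyte sum was 346 to 540 CPM in control naive and 2638 to 3058 CPM in control treated libraries.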

How the data were processed

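RNA of 10 libraries was measured by bulk sequencing, with RNA from a microprep kit and a low-input library kit, per the labels' protocols. The authors deposited 1 table of estimated counts per gene. The submitters' processing notes name kallisto 0.44.0 and mm10, without saying how they were used. The values are whole numbers, the 4 with more than 6 digits end in 0, and they were used as deposited. The 96 rows that are not mouse genes (at most 0.00277% of a library's counts) were left out of totals and tests.

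The 4 groups were fitted in 1 edgeR 4.0.16 model (R 4.3.3, quasi-likelihood F-test, filterByExpr, 29648 genes). TMM factors came from the 11274 genes averaging 5 CPM or more, since the rate of reads over 1464 silent receptor genes differed between libraries. CPM are scaled by these factors. Calls are at a Benjamini-Hochberg adjusted p under 0.05 over all tested genes, and SE is the log2 fold change over the square root of F. The common biological coefficient of variation was 0.235. Alternatives were other factors, DESeq2 1.42.0, limma-voom (limma 3.58.1), other filters, background subtraction, a Ddx3y covariate, replicate blocks, fits on only the compared groups and leave-one-out fits.

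Replicates were separate libraries (smallest chi-square per degree of freedom 12.5). Deviations of same-numbered naive libraries correlated at 0.27, 0.32 and 0.47, and those of differently numbered naive libraries of the 2 grafts at -0.43 to 0.043. Because deviations from a group mean cancel within each group, these values cannot establish that the title numbers mark pairs. What these numbers mark is not given in the sources used here. Partner genes named are at most 3 per list and comparison, the called ones with the largest absolute change that averaged 5 CPM or more, and 1 such gene is not reported here. The members and lists were chosen with earlier results of these data known. Gene symbols came from GENCODE M21. The fit was tested on simulated data.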

Additional observations from a re-analysis of the deposited data

How the results depend on the processing

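The rise of Csf1r in control tumours kept its direction in all 17 alternatives and was called in 16 of them, with values from 0.46 to 1.71, the exception being library totals. Of 810 member values under alternatives, 706 stayed on the same side of the threshold, 46 passed it newly, 1 fell below it, 56 uncalled values changed sign by at least 1 SE and 1 reversed, which was Trem2 in control tumours at -0.63 with library totals. The number of the 9 genes called on treatment in control tumours was 1 in the reported fit. It was 4 with the all-gene scaling, 7 with DESeq2 and 2 with limma-voom, each of them higher. It was 2, both higher, with all 53207 genes with a count tested, of which 6.46% were called higher. It was 3 with library totals, all lower and without Csf1r, where 67.8% of all tested genes were called lower, and 1 to 4 when a library was left out. On treatment in Sox2Hi tumours it was 0, and 2 with limma-voom. It was 1 there with DESeq2, only genes of at least 5 CPM or only the groups compared. It was also 1 with library totals, where 6.04% of all tested genes were called. For the naive grafts it was 0, and 5 with DESeq2, 2 with limma-voom and 4 with the replicate block by title numbers in the naive libraries alone. For the treated grafts it was 0, and 2 with library totals and 1 with DESeq2. For the interaction it was 0, and 2 with the all-gene scaling, 5 with DESeq2, 1 with limma-voom, 1 with the replicate block by title numbers and 0 to 1 when a library was left out. Leaving out a library gave 0 calls in each of the other 3 comparisons. The replicate block by title or description numbers over all libraries changed no other call. The all-gene scaling moved the median of all tested genes by 0.42 on treatment in control tumours, -0.20 in Sox2Hi tumours, 0.29 and -0.34 between the naive and the treated grafts and -0.63 in the interaction, and the members by 0.42, -0.20, 0.30, -0.32 and -0.61. Depth limits Csf1r, C1qa and Trem2 most, with as few as 231, 231 and 178 counts in a library. With 2 treated libraries per graft, the spread within these groups rests on 1 difference each.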
